A study of Mus musculus with 9 samples.

Results

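The proteins of the cytosolic ribosome were examined at the level of their messenger RNA in mouse colon. The gene table was searched for symbols made of Rpl or Rps with a number and at most 1 of the letters a, l, x or y, for Rplp0, Rplp1 and Rplp2, and for Rpsa. Of the 83 symbols found, 3 that the annotation types as pseudogenes (Rps4l, Rpl6l and Rpl32l) were left out, which left 80 genes of the 55401 in the table. Of these, 31 encode proteins of the small subunit and 49 proteins of the large subunit, and they lie on 19 chromosomes, with 4 on X. The search is by symbol, so 6 related genes with other names (Fau, Rps3a1, Rack1, Rpl22l1, Rpl36al and Rpl7l1) are described separately.

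RNA with a poly(A) tail was sequenced from colonic tissue of wild-type mice in 9 libraries, 3 in each of 3 groups. The chow group and the high-fat diet group carry AOM/DSS in their titles, an abbreviation for a carcinogen, azoxymethane, given with an irritant of the bowel, dextran sulfate sodium, to raise tumours in inflamed colon. The third group is labelled only by berberine, a plant alkaloid. Neither its diet nor any AOM/DSS treatment is in its labels, so a difference between berberine and another group cannot be assigned to the drug alone. Strain, sex, age and dose are not in the labels, nor whether each library came from its own animal, so p-values measure the spread between these libraries, which may be technical. Library totals ran from 51961764 to 69007117 estimated counts.

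A cytosolic ribosome is built in the nucleolus from ribosomal RNA and one copy of most of its proteins. The small subunit decodes the message and the large subunit joins the amino acids. Many messenger RNAs for ribosomal proteins begin with a cytosine followed by a run of pyrimidines, the terminal oligopyrimidine (TOP) motif, through which the mTOR pathway controls their translation. In the intestine, dividing crypt cells need a steady supply of ribosomes, and Myc is known to raise it.

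RefSeq start sites on GRCm38.p6 could be matched to 60 of the 80 genes. The following 30 bases, 10 before the start and 20 from it, are shown because they let the TOP motif be seen beside the genes described below. The start is base 11, and capitals mark the longest run of C and T.
Rpl15, chr14:18270967-18270996, minus strand: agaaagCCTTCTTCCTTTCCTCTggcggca
Rps6, chr4:86857348-86857377, minus strand: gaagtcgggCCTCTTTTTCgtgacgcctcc
Rplp2, chr7:141447641-141447670, plus strand: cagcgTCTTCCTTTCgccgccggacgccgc
Rps27, chr3:90213629-90213658, minus strand: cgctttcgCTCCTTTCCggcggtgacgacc
Rps10, chr17:27635225-27635254, minus strand: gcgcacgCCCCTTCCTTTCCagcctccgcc
Rps18, chr17:33955646-33955675, minus strand: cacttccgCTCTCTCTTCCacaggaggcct
Rpl27, chr11:101442235-101442264, plus strand: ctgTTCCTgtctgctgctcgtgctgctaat
Rplp0, chr5:115559457-115559486, plus strand: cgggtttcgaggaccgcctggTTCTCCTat
Rpsa, chr9:120127756-120127785, plus strand: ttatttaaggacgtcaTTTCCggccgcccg

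In Rpl15, Rps6, Rplp2, Rps27, Rps10 and Rps18 the first transcribed base was C and lay in a pyrimidine run, whereas in Rpl27, Rplp0 and Rpsa the listed start did not have that form. A C at base 11 followed by at least 4 bases that were each C or T, read on the gene's strand, stood at 13 of 72 listed starts of these genes (18.1%) and at 823 of 32851 starts of all genes (2.51%). A run of at least 8 such bases anywhere in the window, which includes many of the first kind, was found at 31.9% of the ribosomal protein starts and at 11.2% of all starts. In both shares, chromosome 18 was left out for the ribosomal protein starts only. A listed start can differ from the one used in colon, so a window without the motif says only that these letters are not in it.

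Ribosomal protein genes were among the most abundant transcripts. FPKM, a fragment count scaled by transcript length and library size, allows genes to be compared per length, and the median over the 80 genes of their mean FPKM was 197.3. Of the 80, 61 reached a mean of 100 FPKM, and 17 were among the 100 genes with the highest mean FPKM in the table. The highest was Rplp1, an acidic protein of the large subunit's stalk, at a mean of 2107 FPKM. It was followed by Rps15 of the small subunit at 1197 FPKM and Rpl36 of the large subunit at 829.9 FPKM. At the other end, Rpl10l, a paralog of Rpl10 known from testis, had a count of 0 in all 9 libraries, which allows up to 3 fragments or 12 counts a library (0.174 to 0.231 CPM, counts scaled to a common library size, here before the TMM factors used below, and for counting error only). Rpl39l, a paralog of Rpl39 also known from testis, had counts between 0 and 12, and Rpl3l had a mean of 0.5364 FPKM. These 3 fell below the minimum mean of 1 FPKM, so 77 genes were tested.

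The share of all counts that fell on the 80 genes was 3.33%, 2.86% and 4.90% in the chow libraries 1 to 3, 4.50%, 3.99% and 4.77% under high-fat diet, and 3.54%, 3.25% and 3.42% in the berberine group. The group means were 3.70% ± 1.07, 4.42% ± 0.393 and 3.40% ± 0.147 (SD, n = 3 each). All high-fat diet libraries lay above all berberine libraries and above 2 of the chow libraries, while the library with the largest share of all was chow replicate 3. In exact two-sided permutation tests, where 3 against 3 libraries cannot give a p below 0.1, the difference was 0.722 percentage points for high-fat diet minus chow (p = 0.4), -1.02 for berberine minus high-fat diet (p = 0.1) and -0.293 for berberine minus chow (p = 0.9). Adjusted over these 3 comparisons, the exact permutation p-values were 0.6, 0.3 and 0.9. In bulk tissue, fewer cells rich in ribosomes and fewer transcripts per cell cannot be told apart.

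**Figure D1:**
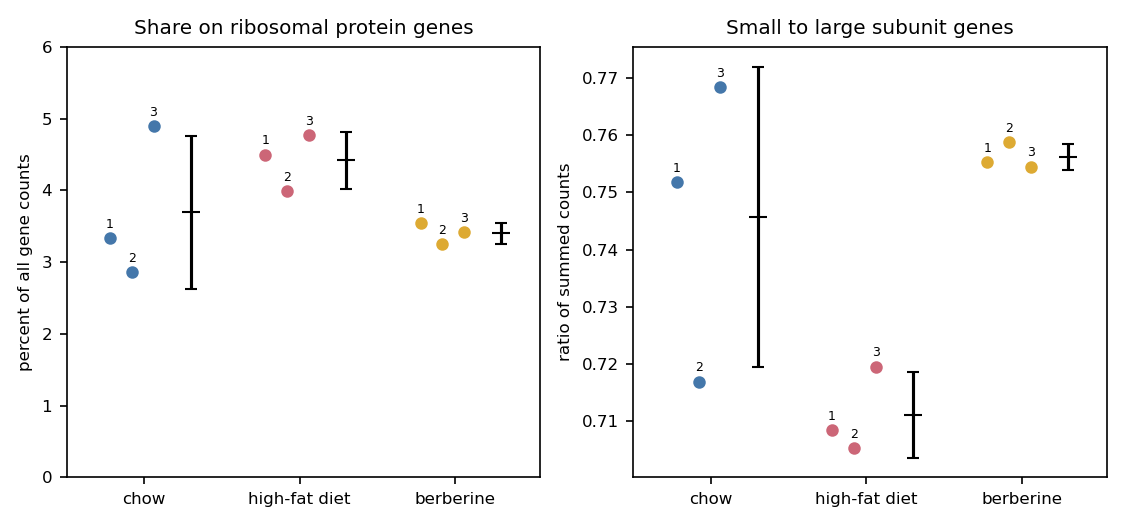
Left, percent of all gene counts on the 80 ribosomal protein genes in each library; right, summed counts of small subunit genes divided by those of large subunit genes, on an axis that does not start at 0. Points are libraries with their replicate number, and bars are mean ± SD of 3; chow replicate 3 (4.90%) sits far above chow replicates 1 and 2, and the berberine ratios (0.755 to 0.759) lie above the high-fat diet ratios (0.705 to 0.719).

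Chow replicate 3 stood apart from the other chow libraries over nearly the whole set. Of the 77 tested genes, 76 were higher there than in chow replicates 1 and 2, and 48 had their highest level of all 9 libraries there. Chow replicate 2 held the lowest level of 47 genes, and its 6 proximal colon genes summed to 4139 CPM, against 1258 and 628 CPM in chow replicates 1 and 3, 29.7 to 53.2 CPM under high-fat diet and 246.5 to 541 CPM in the berberine group. High-fat diet replicate 3 held the highest level of 24. On the log2 scale, the median distance of the genes from their own mean over the libraries was -0.17, -0.27 and 0.38 in the chow libraries, 0.17, -0.02 and 0.32 under high-fat diet, and -0.10, -0.21 and -0.07 in the berberine group. The genes moved largely as a block from library to library, and the 3 chow libraries alone spanned the range of all 9. Other signals also set chow replicate 3 apart: 11 of 12 striated muscle genes had their highest level there, and their summed level was 1713 CPM against 40.1 to 62.1 in the other chow libraries and 15.8 to 40.9 elsewhere. The part of these muscle and proximal colon transcripts in the ribosomal protein levels was not tested.

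**Figure D2:**
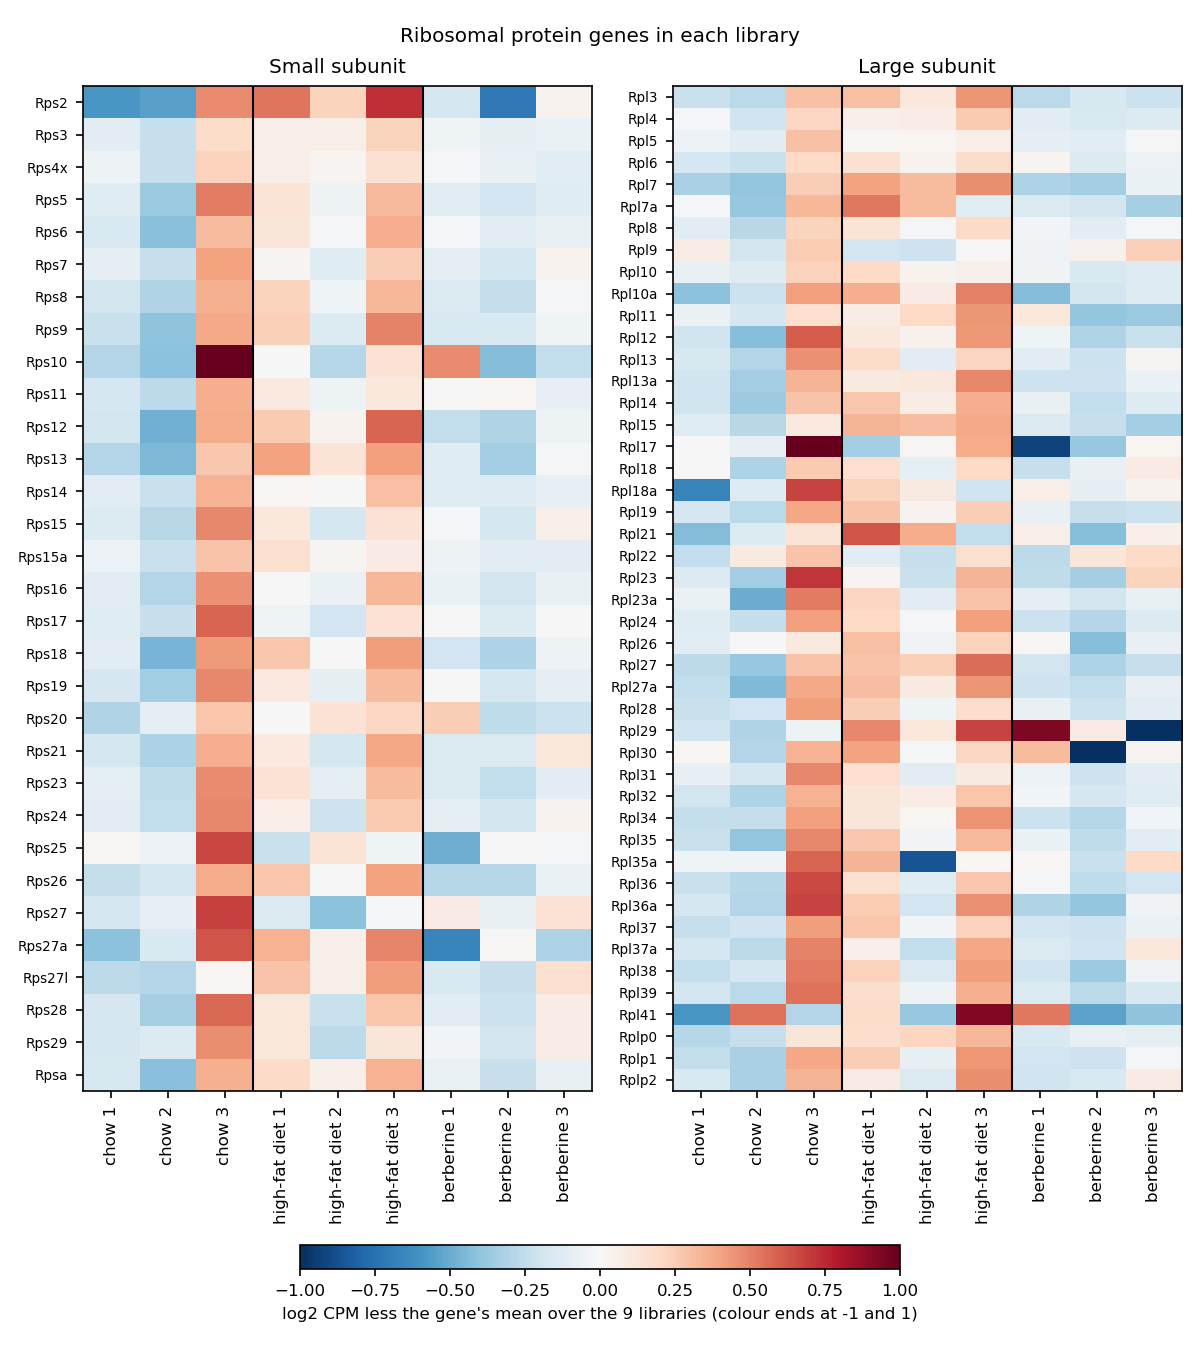
Each row is one of the 77 tested genes and each column a library; colour is log2 CPM less the gene's mean over the 9 libraries, with small subunit genes on the left and large subunit genes on the right. The columns of chow replicate 3 and high-fat diet replicates 1 and 3 are mostly red, those of chow replicates 1 and 2 and of the berberine group mostly blue, and Rps10, Rpl17, Rpl29, Rpl30 and Rpl41 depart from the common pattern.

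Proteins of both subunits are needed in equal number, and their messages were set against each other. Only each gene's own row was summed. Counts on pseudogene copies, which held 94.5% for Rps2 and 96.0% for Rpl21, are therefore not in the sums. Fau and Rps3a1, which supply small subunit proteins under other names, are not in them either. The ratio of summed small subunit counts to summed large subunit counts was 0.752, 0.717 and 0.768 in chow, 0.708, 0.705 and 0.719 under high-fat diet, and 0.755, 0.759 and 0.755 in the berberine group. The high-fat diet and berberine libraries did not overlap, while 1 chow library lay inside the high-fat diet range. Exact two-sided permutation p-values were 0.1 for berberine minus high-fat diet, 0.2 for high-fat diet minus chow and 0.7 for berberine minus chow (0.3, 0.3 and 0.7 adjusted over the 3). The median log2 fold change of high-fat diet minus chow was 0.09 over 31 small subunit genes and 0.16 over 46 large subunit genes. For berberine minus high-fat diet the medians were -0.21 and -0.33.

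High-fat diet was compared with chow, both with AOM/DSS, to see what the diet changed. Most ribosomal protein genes had values slightly above chow, but only 1 passed the test: edgeR's quasi-likelihood test with Benjamini-Hochberg adjustment over 14506 genes called 1 of 77 higher (1.3%) and 0 lower, against 15.2% and 16.6% of all genes tested. The same test at an unadjusted p under 0.05 gave 5 higher, against 20.8% of all genes, and 0 lower, against 22.3%. DESeq2's Wald test called 4 higher (5.19%) and 0 lower, against 18.1% and 20.4% of all genes. The groups did not overlap, with high-fat diet higher, in 5 genes (6.49%, against 23.2% of all genes), namely Rpl15, Rpl29, Rpl7, Rplp0 and Rps27l, and in the other direction in 0 (22.6% of all genes). The fold change was above 0 in 60 of the 77 (77.9%, against 50.1% of all genes). The median log2 fold change was 0.14, while it was 0.00 over all genes tested and -0.12 over the 413 other genes that averaged 100 FPKM or more.

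Rpl15 (chromosome 14, 18267823 to 18271391) is a large subunit protein needed for maturation of that subunit. It stood at 295, 264 and 343 CPM in chow, 407, 396 and 416 CPM under high-fat diet and 289, 273 and 253 CPM in the berberine group. All 3 high-fat diet libraries lay above all 6 others, chow replicate 3 included. Its log2 fold change was 0.43 ± 0.12 (SE, 1.35-fold) for high-fat diet minus chow, with adjusted p = 0.0277 by edgeR's quasi-likelihood test with Benjamini-Hochberg adjustment. The call was lost without chow replicate 1 or 2 or without any 1 high-fat diet library, where the adjusted p by the same edgeR test ran from 0.059 to 0.0792.

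Without chow replicate 3 many more genes passed. The same fit on the other 8 libraries called 17 of 77 genes higher (22.1%, against 14.4% of all genes) and 0 lower (14.9% of all genes), and the median log2 fold change of the 77 was 0.37, with 73 above 0. The 17 were Rpl3, Rpl7, Rpl10a, Rpl12, Rpl13a, Rpl14, Rpl15, Rpl19, Rpl27, Rpl27a, Rpl32, Rpl35, Rplp0, Rps2, Rps12, Rps13 and Rps27l. Rpl7 then had a log2 fold change of 0.76 ± 0.14 (adjusted p = 0.00765, edgeR) and Rpl27 one of 0.69 ± 0.13 (adjusted p = 0.00822, edgeR). Without chow replicate 1 or 2 instead, 0 genes passed, and the medians were 0.06 and 0.02. The number of ribosomal protein genes called between these diets thus changed when any 1 of the 6 chow and high-fat diet libraries was left out, and nothing in the labels sets 1 of them aside.

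**Figure D3:**
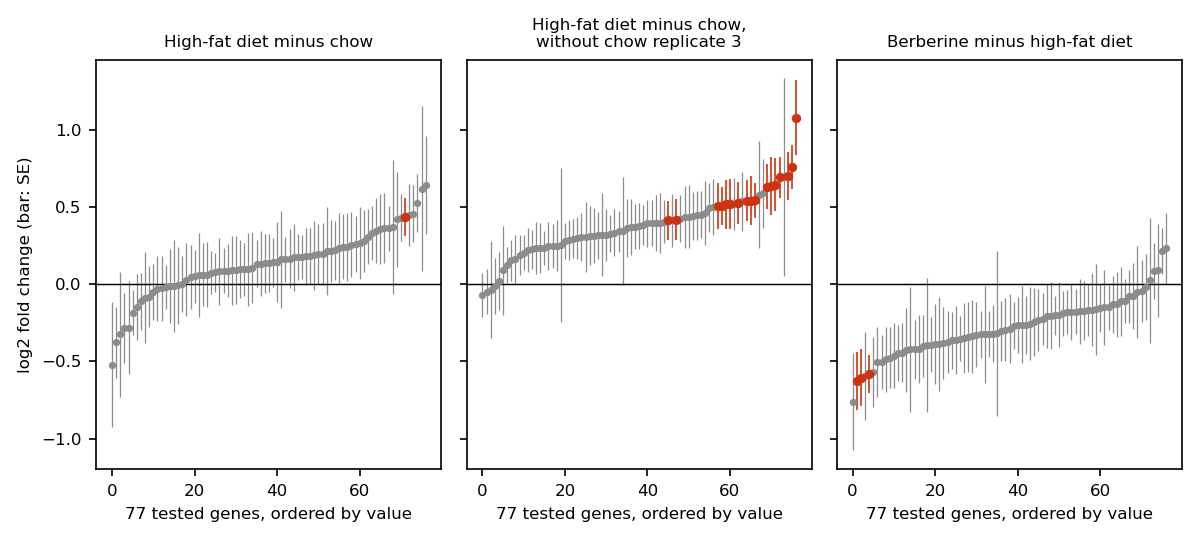
Log2 fold changes (points) with their SE (bars) of the 77 tested genes, ordered by value within each panel; red marks genes with an adjusted p under 0.05. High-fat diet minus chow has 1 such gene with all libraries and 17 without chow replicate 3, and berberine minus high-fat diet has 3, all below 0.

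The berberine group was set against the high-fat diet group to see which of the diet group's levels it did not share. Most ribosomal protein genes had slightly lower values in the berberine group: the fold change was below 0 in 72 of 77 genes (93.5%, against 50.4% of all genes), with a median of -0.29 on the log2 scale against -0.01 over all genes and 0.08 over the 413 other abundant genes. Of the 77, 3 (Rpl7, Rpl27 and Rpl15, 3.9%) were called lower by edgeR's quasi-likelihood test with Benjamini-Hochberg adjustment and 0 higher, against 14.9% and 15.8% of all genes. An unadjusted p under 0.05 was reached by 11 lower, against 21.0% of all genes, and by 0 higher, against 21.3%. DESeq2's Wald test called 6 lower (7.79%) and 0 higher, against 18.6% and 19.2% of all genes. In 36 genes (46.8%, against 25.6% of all genes) every berberine library lay below every high-fat diet library, and in 0 above (24.8% of all genes).

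For Rpl15, whose values are given above, the log2 fold change was -0.58 ± 0.12 (0.669-fold, adjusted p = 0.00881 by edgeR's quasi-likelihood test with Benjamini-Hochberg adjustment). This call held without each library in turn. Rpl7 (chromosome 1, 16101295 to 16104662), a large subunit protein, stood at 634, 601 and 938 CPM in chow, 1048, 986 and 1095 CPM under high-fat diet and 641, 627 and 758 CPM in the berberine group. The high-fat diet libraries were the highest, and chow replicate 3 came next to them. Its log2 fold change was -0.63 ± 0.19 for berberine minus high-fat diet (adjusted p = 0.0357, edgeR) and 0.53 ± 0.19 for high-fat diet minus chow (adjusted p = 0.0636, edgeR).

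Rpl27 (chromosome 11, 101442298 to 101445529), another large subunit protein, stood at 315, 292 and 462 CPM in chow, 462, 446 and 557 CPM under high-fat diet and 334, 306 and 322 CPM in the berberine group. Berberine and high-fat diet did not overlap, whereas chow replicate 3 reached the high-fat diet range. The log2 fold change of berberine minus high-fat diet was -0.61 ± 0.19 (adjusted p = 0.037, edgeR). For both Rpl7 and Rpl27 this call was lost without any 1 library of the 2 groups, with adjusted p-values by the same edgeR test from 0.0526 to 0.116. Without chow replicate 3, which enters this comparison only through the shared estimate of spread, 14 genes were called lower (18.2%, against 16.1% of all genes) and the median was again -0.29.

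**Figure D4:**
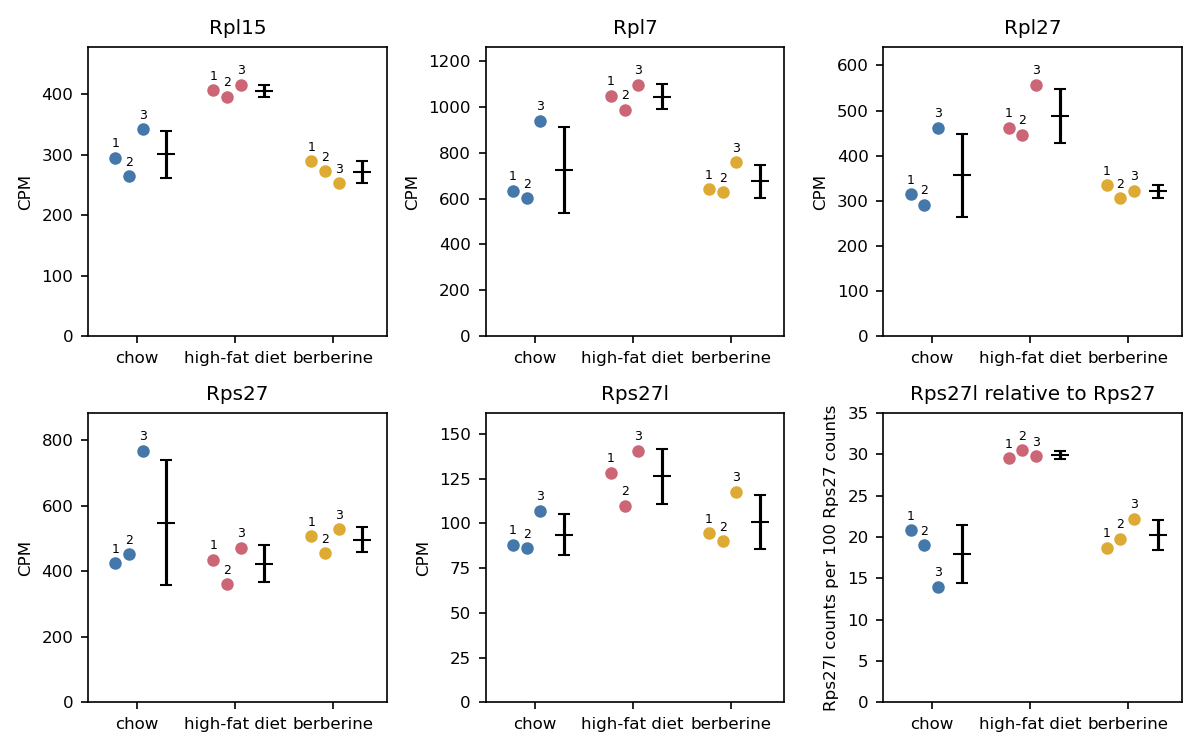
CPM of Rpl15, Rpl7, Rpl27, Rps27 and Rps27l in each library, and Rps27l counts per 100 Rps27 counts; points carry replicate numbers and bars are mean ± SD of 3. For Rpl15 and Rpl7 the high-fat diet points lie above all others, and in the last panel they lie between 29.5 and 30.5 against 14.0 to 22.2 elsewhere.

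The berberine and chow groups were not separated by any ribosomal protein gene. In edgeR's quasi-likelihood test 0 of 77 were called in either direction, as were only 0.0483% of all genes, and at an unadjusted p under 0.05 the count was 1 lower (5.87% of all genes) and 0 higher (5.01%). The groups overlapped in all 77 genes, whereas 8.73% of all genes were apart with berberine higher and 9.37% with berberine lower. DESeq2's Wald test also called 0 of the 77, against 1.22% of all genes higher and 1.4% lower. The fold change was below 0 in 72 of 77 (50.2% of all genes) with a median of -0.14, but without chow replicate 3 it was above 0 in 66 and the median was 0.11. The gene with the smallest p was Rpl17, a large subunit protein near the exit of the peptide tunnel, at 168, 160 and 423 CPM in chow, 134, 170 and 219 CPM under high-fat diet and 89.0, 130 and 172 CPM in the berberine group. Its berberine minus chow value of -0.94 ± 0.41 (adjusted p = 0.451, edgeR) became -0.33 ± 0.29 without chow replicate 3. Rps25 of the small subunit came next, with -0.40 ± 0.22, and Rpl36a, on X, had -0.37 ± 0.27. All 3 comparisons use shared groups: each group enters 2 of them.

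Among the stalk proteins, which recruit elongation factors to the large subunit, Rplp0 anchors the other members of the stalk. It stood at 726, 755 and 962 CPM in chow, 998, 1029 and 1116 CPM under high-fat diet and 795, 839 and 826 CPM in the berberine group. High-fat diet lay above both other groups without overlap, yet neither fold change passed (0.36 ± 0.15, adjusted p = 0.0897, and -0.35 ± 0.15, adjusted p = 0.0988, edgeR). Rplp1 stood at 986, 927 and 1522 CPM in chow, 1377, 1096 and 1567 CPM under high-fat diet and 1017, 1005 and 1147 CPM in the berberine group. Here all groups overlapped, and high-fat diet minus chow was 0.23 ± 0.23. Rplp2 showed the same overlap, with group means of 625 ± 156, 705 ± 154 and 596 ± 64.9 CPM (SD, n = 3 each).

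Among proteins with known roles outside protein synthesis, Rpl5, Rpl11 and Rpl23 bind Mdm2, the ligase that degrades p53, when ribosome assembly is disturbed. Rpl5 was the steadiest of them, with means of 838 ± 132, 827 ± 16.9 and 767 ± 24.6 CPM in chow, high-fat diet and berberine. Rpl11 stood at 522, 487 and 613 CPM in chow, 575, 627 and 743 CPM under high-fat diet and 587, 418 and 423 CPM in the berberine group. The groups overlapped through chow replicate 3 and berberine replicate 1, and its berberine minus high-fat diet value was -0.45 ± 0.18 (adjusted p = 0.0926, edgeR). Rpl23 had means of 425 ± 176, 400 ± 78.4 and 357 ± 79.0 CPM, with its highest value, 627 CPM, in chow replicate 3. For Rpl5 every berberine library lay below every high-fat diet library, by little (-0.11 ± 0.14), and Rpl23 overlapped in every comparison.

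Rps6, the small subunit protein that S6 kinase phosphorylates, stood at 830, 694 and 1154 CPM in chow, 1003, 913 and 1190 CPM under high-fat diet and 914, 853 and 877 CPM in the berberine group. The groups overlapped in every comparison, and its log2 fold changes were 0.21 ± 0.20 and -0.23 ± 0.20 for high-fat diet minus chow and berberine minus high-fat diet. Rpsa, a small subunit protein also known as a laminin receptor, was highest of all in chow replicate 3 (1632 CPM), and its berberine libraries (1083 to 1216 CPM) lay below all high-fat diet libraries (1321 to 1621 CPM). Its value for that comparison was -0.33 ± 0.21 (adjusted p = 0.267, edgeR). Rpl10, an X-linked large subunit protein close to the peptidyl transferase centre, differed little, with 0.08 ± 0.13 and -0.20 ± 0.13 for the same comparisons.

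Rps27 and its paralog Rps27l are both small subunit proteins and alternatives for one position. Rps27 stood at 424, 453 and 768 CPM in chow, 436, 361 and 472 CPM under high-fat diet and 506, 455 and 529 CPM in the berberine group. Unlike in most of the set its value was below 0 for high-fat diet minus chow (-0.38 ± 0.23) and above 0 for berberine minus high-fat diet (0.23 ± 0.23), with adjusted p = 0.249 and 0.472 (edgeR). Without chow replicate 3 the first of these was -0.05 ± 0.15. Rps27l, which is also known as a p53 target, stood at 88.1, 86.1 and 107 CPM in chow, 128, 110 and 141 CPM under high-fat diet and 94.7, 90.0 and 118 CPM in the berberine group. Its high-fat diet libraries lay above all chow libraries and overlapped 1 berberine library (high-fat diet minus chow 0.43 ± 0.15, adjusted p = 0.0607, edgeR).

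Expressed per 100 counts of Rps27 in the same library, Rps27l gave 20.8, 19.0 and 14.0 in chow, 29.5, 30.5 and 29.8 under high-fat diet, and 18.7, 19.8 and 22.2 in the berberine group. The means were 17.9 ± 3.53, 29.9 ± 0.533 and 20.2 ± 1.82 (SD, n = 3 each). The high-fat diet libraries lay above all 6 others, and the ratio does not depend on library scaling. Exact two-sided permutation p-values were 0.1, the smallest possible, for high-fat diet against either other group and 0.5 for berberine minus chow. This pair was fixed by symbol, but the ratio was chosen after its values were seen. In relation to the median ribosomal protein gene of each library, Rps27 lay at 0.04, 0.13 and 0.24 on the log2 scale in chow, -0.34, -0.32 and -0.30 under high-fat diet and 0.17, 0.13 and 0.25 in the berberine group.

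The other paralogs that share the final l were nearly silent. Rpl3l, the paralog of Rpl3 known from striated muscle, had counts of 10, 0 and 560 in chow, 0, 8 and 18 under high-fat diet and 6, 0 and 8 in the berberine group. Its high value fell in chow replicate 3, the library with the high striated muscle level. Its parent Rpl3 stood at 464, 449 and 664 CPM in chow, 666, 582 and 737 CPM under high-fat diet and 451, 486 and 466 CPM in the berberine group. The berberine libraries lay below all high-fat diet libraries (-0.50 ± 0.17, adjusted p = 0.0589, edgeR). Rpl39, parent of Rpl39l and X-linked, had means of 330.0 ± 110, 352 ± 48.8 and 274 ± 12.9 CPM.

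Of the 6 related genes with other names, not all of which need encode a protein of the finished ribosome, 2 (33.3%) were called higher in high-fat diet minus chow. The share over all genes was 15.2%, and 0 of the 6 were lower. In berberine minus high-fat diet 2 (33.3%) were called lower, against 14.9% of all genes, and 0 higher. Rpl7l1, a relative of Rpl7, rose from 72.7 ± 6.32 to 120 ± 7.31 CPM (0.72 ± 0.12, adjusted p = 0.00265, edgeR) and was at 86.4 ± 8.07 CPM in the berberine group (-0.47 ± 0.12, adjusted p = 0.016, edgeR). Rpl36al rose from 157 ± 10.4 to 211 ± 18.4 CPM (adjusted p = 0.0392, edgeR). Per 100 counts of its relative Rpl36a it stood at 78.8, 95.8 and 49.1 in chow, 87.8, 104 and 78.4 under high-fat diet and 103, 92.3 and 96.0 in the berberine group. In this ratio all 3 groups overlapped (exact two-sided permutation p = 0.5 for high-fat diet minus chow, 0.5 for berberine minus high-fat diet and 0.2 for berberine minus chow). Rpl22l1, paralog of the RNA-binding protein Rpl22, was lower in berberine than under high-fat diet (96.1 ± 10.4 against 141 ± 20.7 CPM, adjusted p = 0.0339, edgeR). Per 100 counts of Rpl22 it stood at 47.5, 40.7 and 45.0 in chow, 70.2, 58.4 and 58.5 under high-fat diet and 47.9, 34.1 and 40.1 in the berberine group. For this pair the high-fat diet libraries lay above all others. Exact two-sided permutation p-values were 0.1, the smallest possible, against each of the other groups and 0.5 for berberine minus chow. Neither this ratio nor that of Rpl36al was among the planned tests. Fau, Rps3a1 and Rack1, which supply proteins of the small subunit, passed in none of the 3 comparisons.

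Several genes departed from the common movement of the set, most of them with wide spread. In high-fat diet minus chow the farthest from the median were Rpl17 (-0.52 ± 0.41, and 0.09 ± 0.29 without chow replicate 3), Rps27, Rps2 (0.64 ± 0.32), Rpl29 (0.62 ± 0.54) and Rps10. Rps10, a small subunit protein, stood at 197, 181 and 504 CPM in chow, 240, 198 and 267 CPM under high-fat diet and 336, 179 and 204 CPM in the berberine group. Single libraries, chow replicate 3 and berberine replicate 1, held its high values. In berberine minus high-fat diet the farthest were Rps27, Rpl9 (0.21 ± 0.15) and Rps2 (-0.76 ± 0.32). Rpl9, a large subunit protein, was at 514, 430 and 584 CPM in chow, 432, 424 and 490 CPM under high-fat diet and 478, 505 and 578 CPM in the berberine group, so that the groups overlapped.

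Ribosomal protein genes have many processed pseudogenes, and reads from a gene and a near-identical copy may be assigned to either. The table held 316 rows named as pseudogene copies of the 80 genes, spread over 61 of them. In 55 genes under 10% of the summed counts of gene and copies were on the copies, and the median was 1.69%. Only rows so named were counted, so the shares are lower limits. Rpl6l, for example, typed as a pseudogene and with 2523 to 6283 counts a library, is not in them. In 7 genes, however, more than 50% were on the copies: Rpl21 (96.0%), Rps2 (94.5%), Rps18 (88.9%), Rpl17 (75.3%), Rpl35a (73.7%), Rpl7a (53.1%) and Rps12 (50.9%). Rps2 had a mean of 3285 counts per library against 56169 on its copies, of which 41657 were on Rps2-ps10. The low FPKM of Rpl21 (1.02), Rps2 (25.7) and Rps18 (32.8) therefore cannot be taken as the levels of these proteins' messages, and the values of all 7 are uncertain. The same limit holds to a lesser degree for genes under 50%, among them Rpl3 (44.9%), Rps10 (39.3%) and Rpl10 (38.9%), whose values are given above. The share of all counts on the copies followed that of the genes, at 0.567% ± 0.158 in chow, 0.678% ± 0.0602 under high-fat diet and 0.504% ± 0.0235 in the berberine group.

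**Figure D5:**
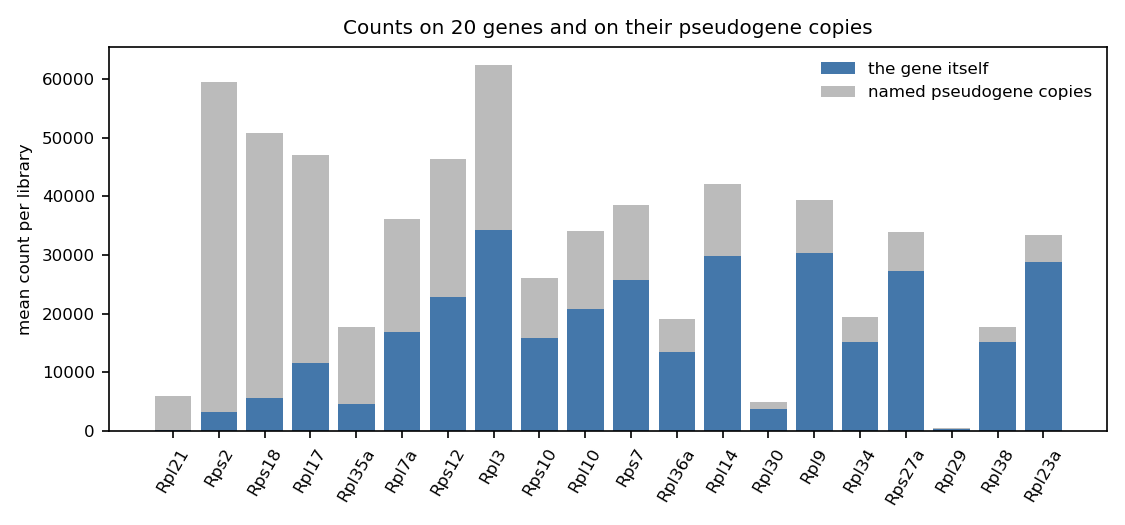
Mean count per library on the gene itself (blue) and on rows named as its pseudogene copies (grey, stacked) for the 20 genes with the largest share on copies, in order of that share. For the first 7, from Rpl21 to Rps12, the grey part is the larger.

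With the copies' counts added to their gene, an alternative chosen after the data were seen, high-fat diet minus chow again had 1 gene higher (Rpl15, 15.5% of all genes) and berberine minus high-fat diet had 4 lower (15.3% of all genes), namely Rpl15, Rpl27, Rpl7 and Rpl3. Rpl15, with 11.7% on its copies, went from 0.43 to 0.38 ± 0.11 for high-fat diet minus chow (adjusted p = 0.026, edgeR). For berberine minus high-fat diet Rpl15 went from -0.58 to -0.37 ± 0.11 (adjusted p = 0.0315, edgeR). Rpl21, Rpl17 and Rps2 show how far the copies moved a value. For high-fat diet minus chow, Rpl21 had 0.42 ± 0.31 on its own row and -0.07 ± 0.14 with copies, which turned its sign. Rpl17 had -0.52 ± 0.41 and -0.09 ± 0.25, and its berberine minus chow value of -0.94 ± 0.41 became -0.42 ± 0.25. Rps2's own row stood at 33.1, 34.1 and 68.8 CPM in chow, 71.9, 58.0 and 82.4 CPM under high-fat diet and 44.1, 30.2 and 50.9 CPM in the berberine group. For Rps2, high-fat diet minus chow was 0.64 ± 0.32 on its own row and 0.34 ± 0.14 with copies. Its values for berberine minus high-fat diet were -0.76 ± 0.32 and -0.34 ± 0.14. None of these values of Rpl21, Rpl17 and Rps2 passed the edgeR test.

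The genes with and without a TOP-like start had close medians. Over 13 tested genes with C and at least 4 pyrimidines at a listed start the median log2 fold change of high-fat diet minus chow was 0.13, and over 44 tested genes with another start it was 0.14. For berberine minus high-fat diet the medians were -0.24 and -0.32. The ranges overlapped almost fully, from -0.58 to 0.23 and from -0.76 to 0.21. The messages behind these values are total poly(A) RNA, so their translation was not measured.

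Other parts of the translation machinery were read from the same fit, in which 15.2% of all genes were higher and 16.6% lower under high-fat diet than in chow, and 14.9% lower and 15.8% higher in berberine than under high-fat diet. Of 29 tested initiation factors, 10 (34.5%) were higher and 0 lower than in chow, with a median log2 fold change of 0.30, and 9 (31.0%) were lower and 0 higher in the berberine group than under high-fat diet. Eif4a1, the helicase that unwinds messages, rose from 270 ± 21.8 to 505 ± 56.5 CPM (adjusted p = 0.00258, edgeR), and Pabpc1, the poly(A)-binding protein, from 666 ± 39.4 to 1424 ± 330 CPM (adjusted p = 0.00274, edgeR). Of 10 elongation factors and related genes, such as Eef1e1, Eef2k and Tpt1, 3 rose (30.0%) and 1 fell. Those that rose were Eef1e1, Eef1g and Eif5a, the last from 399 ± 40.3 to 711 ± 71.6 CPM (adjusted p = 0.0028, edgeR). Of 9 genes for factors at the ribosome or the nascent chain 3 rose (33.3%), namely Serbp1, Sec61a1 and Sec61b. Of 78 mitochondrial ribosomal protein genes 10 rose (12.8%, under the 15.2% of all genes) and 0 fell, with a median of 0.15. Whether these lists differed from the cytosolic ribosomal protein genes was not tested.

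Among 16 genes for Myc, its partners and RNA polymerase I, which makes the precursor of ribosomal RNA, 6 rose (37.5%) and 2 fell (12.5%) under high-fat diet, against 15.2% and 16.6% of all genes. Myc itself went from 28.2 ± 7.32 to 100.3 ± 11.4 CPM and was at 30.9 ± 9.37 CPM in the berberine group (log2 fold changes 1.83 ± 0.26 and -1.70 ± 0.26, adjusted p = 0.00147 and 0.00204, edgeR). Mxd1, an antagonist of Myc, fell by 1.87 on the log2 scale (adjusted p = 0.00118, edgeR). The other gene that fell was Max, a partner of Myc, from 246 ± 41.8 to 126 ± 23.3 CPM (-0.97 ± 0.18, adjusted p = 0.00457, edgeR). Max was at 248 ± 25.7 CPM in the berberine group. Of 18 genes that control translation of TOP messages through mTOR, 3 rose and 3 fell under high-fat diet (16.7% each, near the shares over all genes). In berberine minus high-fat diet 6 of them (33.3%) were higher, against 15.8% of all genes, and 3 (16.7%) lower, against 14.9%. Under high-fat diet Ddit4, which restrains mTOR, rose from 98.8 ± 10.7 to 310.3 ± 71.0 CPM. Sesn1, Deptor and Tsc1, which also restrain mTOR, fell there (log2 fold changes -1.45 ± 0.17, -1.36 ± 0.21 and -0.84 ± 0.13). Of 11 genes of the p53 response to ribosomal stress 4 rose (36.4%), including Trp53 (1.09 ± 0.16) and Bax (0.90 ± 0.22), and 1 fell. In berberine minus chow 0 genes of any of these lists passed the test.

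Markers of other cell types were read in the same libraries. Over all genes tested, 15.2% were higher and 16.6% lower under high-fat diet than in chow. In berberine minus high-fat diet 15.8% were higher and 14.9% lower. Among 14 genes of crypt base and dividing cells 9 (64.3%) were higher under high-fat diet than in chow and 0 lower. Their summed level was 1603 to 1778 CPM under high-fat diet, 523 to 888 CPM in chow and 556 to 765 CPM in the berberine group. Of 12 follicular B cell genes 10 (83.3%) were lower under high-fat diet than in chow and 12 (100%) higher in berberine than under high-fat diet. Their summed levels were 196 to 405 CPM under high-fat diet, 553 to 826 CPM in chow and 768 to 1454 CPM in berberine. Smooth muscle genes summed to 1667 to 7866 CPM under high-fat diet, 10020 to 14090 CPM in chow and 4959 to 5898 CPM in berberine. Genes of general epithelium summed to 10370 to 13880 CPM under high-fat diet, 16150 to 17220 CPM in chow and 14580 to 17500 CPM in berberine, so they were present in every library, as the tissue label has it. Of these 13 genes 5 (38.5%) were lower and 1 (7.69%) higher under high-fat diet than in chow. In berberine 5 (38.5%) were higher and 1 (7.69%) lower than under high-fat diet. The summed levels of the 6 proximal colon genes under high-fat diet lay below those of every other library. Of these 6 genes, 4 (66.7%) were lower there than in chow and 3 (50%) were higher in berberine than under high-fat diet. T cell genes summed to 43.1 to 51.6 CPM under high-fat diet, 85.3 to 198 CPM in chow and 159 to 208 CPM in berberine. Adipocyte genes summed to 29.9 to 60.5 CPM, 336 to 502 CPM and 295 to 1620 CPM in the same order. Squamous epithelium genes summed to 120 to 207 CPM under high-fat diet, 10.02 to 24.2 CPM in berberine and 6.43, 23.8 and 286 CPM in the chow libraries. No gene of the crypt, B cell, T cell, adipocyte, smooth muscle, proximal colon or general epithelium lists was at 0 in all libraries of a group. Their part in the ribosomal protein results was not tested.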

How the data were processed

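Each of 9 libraries has 2 deposited columns, named per the file headers as FPKM and as an estimated count per gene. The deposited estimated counts are whole, and 1 fragment appears to be worth about 4. Per the labels' protocols, libraries were stranded and carried molecular identifiers. The submitters' processing notes name GRCm38, HISAT2 2.0.4, StringTie 1.3.4d, cutadapt 1.9, UMI-tools, edgeR and DESeq2. Their roles and settings are not given in the sources used here.

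Counts of all 9 libraries were fitted with edgeR 4.0.16 (TMM, quasi-likelihood test, 3 groups) in R 4.3.3 for the 14506 genes that averaged 1 FPKM or more, which held 98.9% of counts. Benjamini-Hochberg adjustment ran over all of them, and a gene changed, rose or fell where its adjusted p was under 0.05. The scripts were tested on simulated data. DESeq2 1.42.0 and limma 3.58.1 on log2(FPKM + 1) served as alternatives. The genes and lists were chosen with earlier results of these data known. Named are genes past the threshold (where none passed, the 3 with the smallest p), paralogs ending in l with their parents, stalk proteins, Rpsa, Mdm2 binders, Rps6, the 3 highest and 3 lowest in FPKM, those farthest from the median, and up to 4 per other list by smallest p. Start sequences are RefSeq's on GRCm38.p6.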

Additional observations from a re-analysis of the deposited data

How the results depend on the processing

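The number of ribosomal protein genes higher in high-fat diet minus chow, 1 as reported (15.2% of all genes), was 4 with library totals in place of TMM (19.4%), 4 with DESeq2's Wald test (18.1%), 5 with limma on log2(FPKM + 1) (20.4%) and on log2(FPKM + 0.1) (20%), 0 in a fit of only these groups (12.3%), and between 0 and 17 with 1 library left out (11.9% to 14.4%). The number lower in berberine minus high-fat diet, 3 as reported (14.9% of all genes), was 6 with DESeq2 (18.6%), 6 and 6 with limma (18.6% and 18.4%), 1 when every gene with a count was tested (5.71%), 8 in a fit of only these groups (15.3%), and between 1 and 14 with 1 library left out (9.46% to 16.1%). The cause of these differences was not tested. Library totals moved the median of all genes to 0.13 for high-fat diet minus chow and -0.12 for berberine minus high-fat diet, and the medians of the ribosomal protein genes to 0.25 and -0.39. With them, 59.8% of all calls were higher in the first comparison (47.7% with TMM) and 40.9% in the second (51.4% with TMM). As a share of summed FPKM, the difference of berberine minus high-fat diet was -1.37 percentage points (5.22% against 6.59%). As a share of counts, high-fat diet minus chow ranged from 0.305 (without chow replicate 2) to 1.32 percentage points (without chow replicate 3), and berberine minus chow from -0.711 to 0.307 in the same order. With the label's replicate number as a block, the counts were 5 higher (14.3% of all genes) and 7 lower (14.1%), but libraries of 1 number did not deviate together (correlations from -0.10 to 0.16), so the numbers are not shown to pair them. Over the named genes, 2022 values kept their side of the threshold, where direction was compared only for called values. A further 55 gained and 20 lost a call, and 0 called values reversed. Rpl10l, Rpl39l and Rpl3l were too low to test. Of the tested genes, Rpl21 (173 to 425 counts a library) and Rpl29 (108 to 596) had the lowest mean FPKM.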
